A study of Mus musculus with 8 samples.

Results

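Lysosomal enzymes, lysosomal membrane proteins, subunits of the lysosomal proton pump and the TFEB family of transcription factors were measured in AtT20 cells with and without the RXR agonist HX630. The set was a list of 38 genes given by name, and their probes were found on the array through the RefSeq accession of each probe. All 38 had at least 1 of the 49 matching probes, out of 39429 probes and 19751 named genes on the array. Testing required a probe to be marked by Feature Extraction as well above background on 4 arrays or more of the 8, which left 35 of the 38 genes here and 15320 of all genes. The list was not chosen by a threshold on these measurements, but it was chosen with earlier results of these data known. The shares and medians of all genes set beside it are therefore a description, and no test of the set was made.

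AtT20 is a line of murine pituitary corticotroph tumor cells, which make the hormone precursor *Pomc*. Both groups were AtT20 cells at 50 % confluence that were then kept for 48 hr in DMEM with 1 % stripped FBS, a serum freed of lipophilic hormones. The control group (n = 4) received no HX630 and the treated group (n = 4) received it at 10 μM, a ligand of the retinoid X receptors that the study's methods describe as dissolved in DMSO. The labels do not say whether the replicates were separate cultures, so the p-values describe the spread between these samples only. RNA was labelled with Cy3 and read on 1-color Agilent arrays.

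Lysosomes are acidic organelles in which hydrolases break down proteins, glycans, glycolipids and other lipids. The V-ATPase pumps protons into them, and heavily glycosylated membrane proteins line their inner face. TFEB, TFE3 and MITF are related basic helix-loop-helix factors that switch on many lysosomal genes through a short palindrome, CACGTG, often found in the CLEAR element (coordinated lysosomal expression and regulation). When nutrients are plentiful, mTORC1 on the lysosomal surface phosphorylates these factors and keeps them in the cytoplasm, so that their activity is set largely after the mRNA has been made. In pituitary endocrine cells lysosomes also take up and degrade secretory granules.

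Signal is given as log2 of the processed intensity minus the 75th percentile of its array, so that 0 stands for a spot as bright as that percentile. The 75th percentile itself lay between 1335 and 1863 intensity units on control arrays and between 1803 and 1899 on HX630 arrays. From 69.7% to 73.5% of probes were well above background on each array, and 0 probes were saturated. The 4 control arrays lay on slide 1 with scan 1 and the 4 HX630 arrays on slide 2 with scan 2, and the treatment cannot be told apart from slide or scan in any of these results. All 6 corticotroph markers were well above background on all 8 arrays. Their summed linear signal, in units of the 75th percentile, was 301 to 376 on control arrays and 218 to 228 on HX630 arrays, without overlap. *Pcsk1* was called lower (log2 change −2.06), *Crhr1* (1.11) and *Neurod1* (0.72) were called higher, and *Pomc* (−0.45), *Tbx19* (−0.37) and *Pitx1* (−0.32) were lower without overlap but not called.

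Markers of other cells were followed beside the genes. Of the 7 markers of other pituitary cells, *Prl*, *Tshb* and *Cga* were well above background on 0 arrays and *Fshb* on 3, whereas *Gh* and *Lhb* were so on all 8 and *Pou1f1* on 7. *Gh* was called lower (−0.80), and the summed signal of the list was 0.145 to 0.27 with control and 0.174 to 0.199 with HX630. Macrophages are rich in lysosomes, and the summed signal of 6 macrophage and leukocyte markers was 5.46 to 7.59 with control and 5.27 to 7.33 with HX630. Most of that sum came from 1 probe of *Itgam*, which changed by −0.01 with overlapping groups. The other *Itgam* probes were far dimmer, with control means of −4.67 and −4.08 against 2.56. They changed by 0.07 with overlapping groups and by −0.43 without overlap, and neither was called. Without *Itgam* the sum of the other 5 was 0.753 to 0.9 with control and 0.491 to 0.589 with HX630, lower without overlap. Of these 5, *Csf1r* was called lower at its brightest probe (−0.72 ± 0.07, SE). Its other tested probes changed by −0.31 and −0.15 and were not called. *Ptprc* (−0.45) and *Adgre1* (−0.41) were lower without overlap but not called. *Cd14* changed by 0.42 with overlapping groups, and *Lyz2* was well above background on 0 arrays. The 4 fibroblast markers summed to 0.04 to 0.0743 with control and 0.0575 to 0.0808 with HX630, with *Dcn* called higher (1.04) and *Pdgfra* well above background on 0 arrays. The 3 endothelial markers summed to 2.70 to 3.35 with control and 2.15 to 2.63 with HX630, with *Pecam1* called lower (−0.59) and *Cdh5* well above background on 0 arrays. The part of these cells in the results was not tested.

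Lysosomal genes were lower with HX630. A gene was called at an adjusted p below 0.01 in limma with a fold change above 1.5, and its brightest tested probe stood for it. Of the 35 tested genes 17 were called lower (48.6%) and 0 higher, whereas 11.2% of all tested genes were called lower and 8.38% higher. The 17 fell to between 38.3% (*Hexa*) and 65.1% (*Lamp1*) of control. At an adjusted p below 0.01 without the fold threshold, 28 of the 35 passed, against 51.2% of all tested genes. The signals of the groups did not overlap for 29 genes that were lower and 1 that was higher, *Ids*. Among all tested genes the groups were apart in the lower direction for 32.8% and in the higher direction for 28.6%. In bulk RNA, fewer cells of a kind and less RNA per cell cannot be told apart.

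The median log2 change of the 35 genes was −0.57, and that of all 15320 tested genes was −0.03. Single genes ranged from −1.39 to 0.53. Of the 35, 33 had a change below 0, and the direction below 0 was held by 53.6% of all tested genes. A scaling to the spike-in probes, RNAs added in known amounts, raised the median of all tested probes by 0.22 on the log2 scale. Under it the median of the 35 genes was −0.35, with 12 called lower and 1 higher. The difference of −0.53 from the median of all tested genes stayed by construction, since such a scaling shifts all genes alike. That difference was −0.49 with quantile normalization and −0.44 with normexp background correction, which do not shift all genes alike. Under a scaling to the median of each array 16 were called lower and 1 higher.

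**Figure D1:**
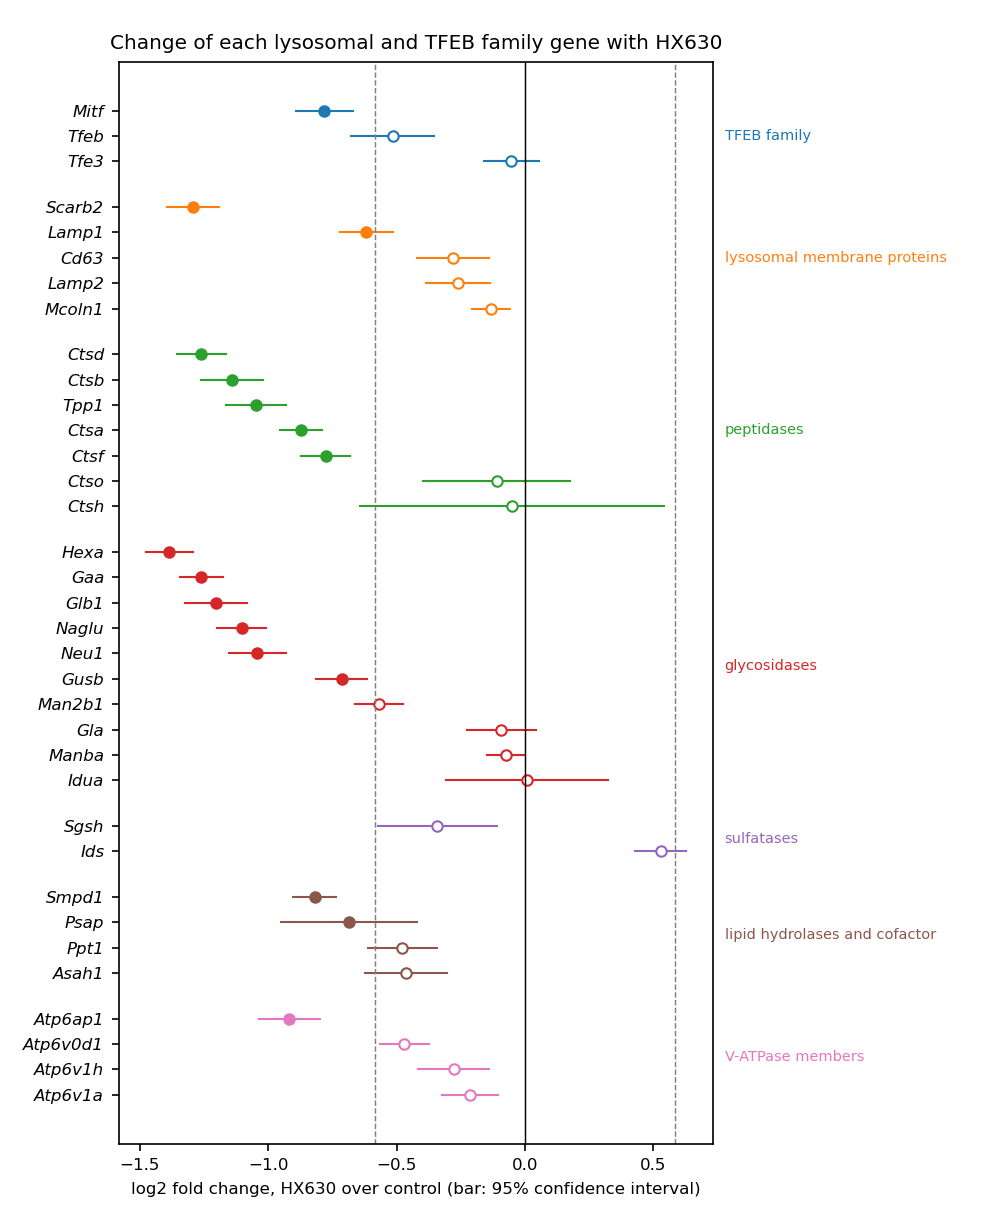
Log2 fold change of HX630 over control for the 35 tested genes, grouped by role and ordered by size within a role. Filled points mark the 17 called genes, bars are 95% confidence intervals (n = 4 and 4) and dashed lines mark the fold threshold of 1.5. The filled points all lie to the left of 0, and *Ids* alone has an interval wholly to the right.

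**Figure D2:**
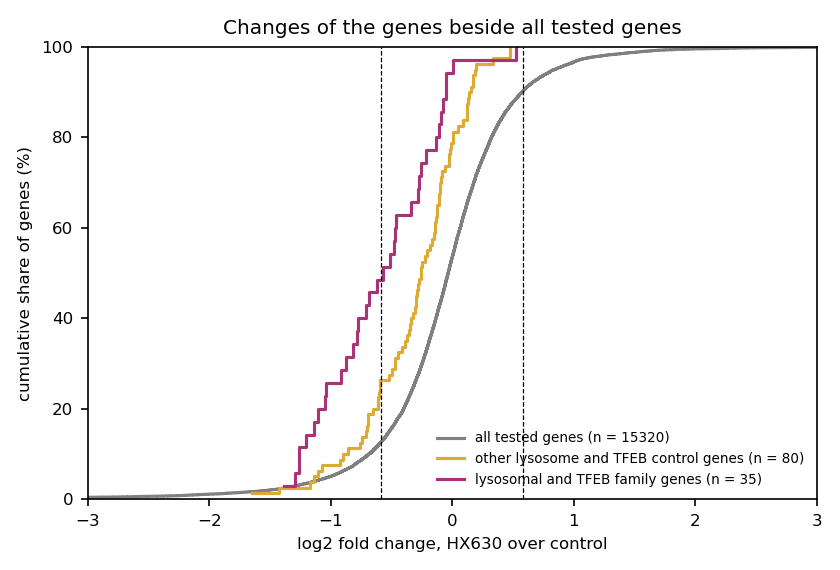
Cumulative share of genes (vertical axis, %) against the log2 fold change of HX630 over control, for the 35 tested lysosomal and TFEB family genes, 80 other lysosome and TFEB control genes and all 15320 tested genes. Dashed lines mark the fold threshold of 1.5, and the curves of the 35 genes and of all tested genes pass their medians at −0.57 and −0.03.

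Among the factors themselves, *Mitf* fell and *Tfe3* did not pass the test. *Mitf* gave log2 signals of 0.61, 0.53, 0.46 and 0.52 on the control arrays and −0.17, −0.22, −0.32 and −0.30 on the HX630 arrays. Every HX630 array was below every control array, and the change was −0.78 ± 0.05 (SE, adjusted p = 5.19e-06, limma), or 58.2% of control. A second *Mitf* probe changed by −0.75. With the spike-in scaling the change of *Mitf* was −0.56 and it was no longer called.

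*Tfeb* had signals of −3.56, −3.45, −3.48 and −3.22 with control and −3.91, −3.95, −3.95 and −3.96 with HX630. The groups did not overlap. The change of −0.52 ± 0.07 passed the adjusted p (4.16e-04) but, at 1.43-fold, not the fold threshold. With array weights it was −0.59 and was called.

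*Tfe3* had signals of 2.37, 2.34, 2.25 and 2.30 with control and 2.29, 2.26, 2.33 and 2.17 with HX630. These groups overlapped. Its change was −0.05, with a 95% confidence interval from −0.16 to 0.05 (adjusted p = 0.351), and a second probe also gave −0.05. The sign for *Tfe3* depended on the scaling, since the change was 0.17 with the spike-in probes (adjusted p = 0.0159), 0.04 with the array median and 0.004 with quantile normalization. The array measures mRNA and holds no measure of where these proteins lay in the cell.

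The palindrome bound by these factors was sought in the 250 bases before each start in the RefSeq promoter table (assembly GRCm38.p6), which held 41 promoters of 34 of the 38 genes. Each motif reads the same on both strands. CACGTG was in at least 1 promoter of 11 of the 34 genes (32.4%) and of 6.86% of all 27025 genes in the table. The longer TCACGTGA, which contains CACGTG, was in 5 of the 34 (14.7%) and in 0.907% of all genes. Other lysosome and TFEB control genes, counted below, held CACGTG in 19 of 63 (30.2%) and TCACGTGA in 5 of 63 (7.94%). The share with CACGTG was thus not particular to the 34. The 10-letter palindrome of the CLEAR element, which contains both, was in 0 of the 34 and in 0.27% of all genes. CAGCTG, a palindrome of the same length searched for comparison, was in 20.6% of the 34 and in 14.7% of all genes. Among the genes called lower CACGTG was found in 7 of 16 (43.8%), and among those tested and not called in 4 of 15 (26.7%). The longer TCACGTGA ran the other way, with 2 of 16 (12.5%) and 3 of 15 (20%). CAGCTG also ran the other way, with 18.8% and 26.7%. These differences were not tested. A match is a description of letters and not a site of binding.

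Stretches of 8 of the 11 matching promoters are shown, from 6 of the 7 genes called lower and, beside them, from the 2 genes not called that held more than 1 copy. They run 5′ to 3′ along the strand of the gene, with CACGTG in capitals, and end before the transcription start.
*Lamp1* (chr8:13159070-13159160, plus strand): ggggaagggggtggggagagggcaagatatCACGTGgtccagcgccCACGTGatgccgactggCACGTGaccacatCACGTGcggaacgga
*Ctsd* (chr7:142387890-142388077, minus strand): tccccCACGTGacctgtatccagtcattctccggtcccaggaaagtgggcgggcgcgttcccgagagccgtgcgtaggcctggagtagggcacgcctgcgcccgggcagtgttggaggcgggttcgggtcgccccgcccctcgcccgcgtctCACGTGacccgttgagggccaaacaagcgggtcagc
*Ctsf* (chr19:4855056-4855121, plus strand): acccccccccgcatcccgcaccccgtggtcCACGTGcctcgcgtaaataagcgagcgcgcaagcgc
*Gaa* (chr11:119267793-119267858, plus strand): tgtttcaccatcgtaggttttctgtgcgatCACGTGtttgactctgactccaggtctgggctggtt
*Glb1* (chr9:114401000-114401065, plus strand): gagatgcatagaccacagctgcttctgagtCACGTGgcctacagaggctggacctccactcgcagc
*Naglu* (chr11:101069991-101070056, plus strand): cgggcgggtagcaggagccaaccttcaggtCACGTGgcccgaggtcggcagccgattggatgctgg
*Mcoln1* (chr8:3500418-3500509, plus strand): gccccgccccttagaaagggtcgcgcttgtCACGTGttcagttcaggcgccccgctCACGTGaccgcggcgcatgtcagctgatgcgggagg
*Gla* (chrX:134601164-134601255, minus strand): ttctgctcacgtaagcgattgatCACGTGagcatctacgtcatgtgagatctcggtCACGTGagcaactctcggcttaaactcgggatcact
*Lamp1* held 4 copies within the 61 bases before its start, and *Ctsd*, *Mcoln1* and *Gla* held 2 each. *Lamp1* and *Ctsd* were called lower, while *Mcoln1* and *Gla*, with the same number of copies as *Ctsd*, were not called. The other 3 matching genes were *Ctsa*, called lower, and *Sgsh* and *Atp6v1a*, which were not called and held 1 copy each. TCACGTGA was found in *Ctsa* and *Atp6v1a* as well as in *Ctsd*, *Gla* and *Mcoln1*.

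Peptidases were called lower in 5 of 7 tested genes, with a median log2 change of −0.87. *Ctsd* encodes the main lysosomal aspartic protease. Its signals were 5.42, 5.53, 5.41 and 5.47 with control and 4.24, 4.17, 4.22 and 4.14 with HX630. The fall was 1.26 ± 0.04 on the log2 scale, or 41.7% of control, and a second *Ctsd* probe fell by 1.15.

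*Ctsb*, a cysteine cathepsin, had signals of 3.60, 3.56, 3.46 and 3.51 with control and 2.50, 2.37, 2.33 and 2.36 with HX630. It fell by 1.14 ± 0.05, to 45.3% of control, with the groups far apart relative to their SDs of 0.0639 and 0.0774. *Tpp1* encodes tripeptidyl peptidase, an exopeptidase that trims tripeptides from protein ends. Its signals were −0.10, −0.26, −0.06 and −0.20 with control and −1.17, −1.23, −1.19 and −1.22 with HX630. The fall was 1.05 ± 0.05, to 48.4% of control.

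*Ctsa* encodes protective protein, a carboxypeptidase that also holds β-galactosidase and neuraminidase in a complex. Its brighter probe gave 5.51, 5.52, 5.42 and 5.47 with control and 4.64, 4.58, 4.60 and 4.62 with HX630. The fall of 0.87 ± 0.04 was called, whereas the dimmer probe fell by 0.34 ± 0.07 and was not. *Ctsf*, another cysteine cathepsin, gave 2.36, 2.42, 2.41 and 2.36 with control and 1.69, 1.56, 1.56 and 1.64 with HX630. It fell by 0.78 ± 0.04, or 0.56 with the spike-in scaling, under which it was not called.

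The remaining 4 cathepsins gave no call. *Ctso* changed by −0.11 (95% confidence interval −0.40 to 0.17, adjusted p = 0.465) and *Ctsh* by −0.05 (−0.64 to 0.54, adjusted p = 0.878), both with overlapping groups. The interval of *Ctsh* included a change of 1.5-fold downward. Its control signals spread from −5.50 to −4.75. The sign of *Ctsh* turned when single arrays were left out, with changes from −0.21 to 0.12. *Ctsc* was well above background on 0 arrays and *Ctsz* on 1 control array, so neither was tested.

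Glycosidases were called lower in 6 of 10 genes, with a median log2 change of −0.88. *Hexa* encodes the α subunit of β-hexosaminidase, which removes the terminal sugar of GM2 ganglioside. It gave 3.67, 3.69, 3.58 and 3.66 with control and 2.33, 2.23, 2.25 and 2.24 with HX630. The fall of 1.39 ± 0.04 (adjusted p = 1.9e-07) was the largest among the 35 genes by their brightest probes. When the probes of each gene were averaged, *Gaa* was at −1.42 and *Hexa* at −1.39. *Gaa*, acid α-glucosidase, degrades glycogen. Its signals were 6.30, 6.36, 6.26 and 6.31 with control and 5.08, 5.01, 5.03 and 5.08 with HX630. It fell by 1.26 ± 0.04, to 41.7% of control, and a second *Gaa* probe fell by 1.58.

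*Glb1*, lysosomal β-galactosidase, gave 2.35, 2.38, 2.37 and 2.38 with control and 1.29, 1.06, 1.11 and 1.20 with HX630. It fell by 1.20 ± 0.05, to 43.4% of control. *Neu1*, the lysosomal sialidase that shares the complex with *Ctsa* and *Glb1*, gave 5.33, 5.26, 5.20 and 5.29 with control and 4.32, 4.21, 4.17 and 4.22 with HX630. Its fall was 1.04 ± 0.05, so that these 3 genes of the complex were all called lower.

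*Naglu* and *Gusb* act on glycosaminoglycans. *Naglu*, an α-N-acetylglucosaminidase for heparan sulfate, gave 2.23, 2.20, 2.19 and 2.19 with control and 1.08, 1.12, 1.17 and 1.02 with HX630. It fell by 1.10 ± 0.04, to 46.5% of control. *Gusb*, β-glucuronidase, gave 3.07, 3.00, 2.92 and 3.00 with control and 2.35, 2.28, 2.26 and 2.26 with HX630. Its fall of 0.71 ± 0.04 was 0.50 with the spike-in scaling and was not called there.

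*Man2b1*, an α-mannosidase, lay just under the fold threshold. It changed by −0.57 ± 0.04 (adjusted p = 1.16e-05), or 1.48-fold, and was called at −0.59 without HX630 replicate 1. *Manba*, β-mannosidase, changed by −0.07 (95% confidence interval −0.15 to 0.00), and *Gla*, α-galactosidase A, by −0.09 (−0.23 to 0.04). The direction of both depended on the scaling, since with the spike-in probes they changed by 0.14 and 0.12. *Idua*, α-iduronidase, is described with the genes whose probes disagreed.

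Sulfatases held the 1 gene that was higher beyond the spread of its arrays. *Ids* encodes iduronate sulfatase, which acts on dermatan and heparan sulfate. It gave −0.25, −0.31, −0.32 and −0.35 with control and 0.30, 0.24, 0.16 and 0.19 with HX630. All 4 HX630 arrays were above all control arrays, at 1.44-fold (log2 0.53 ± 0.04, adjusted p = 2.13e-05), which was under the fold threshold. It was called higher with the array median (0.62), the spike-in probes (0.75) and normexp background correction (0.59). *Sgsh*, the heparan sulfate sulfamidase, changed by −0.34 ± 0.10 (adjusted p = 0.0191), and its second probe by 0.04.

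Of the lipid hydrolases and their cofactor, 2 of 4 tested genes were called lower. *Smpd1*, acid sphingomyelinase, gave 4.14, 4.22, 4.12 and 4.16 with control and 3.38, 3.31, 3.34 and 3.32 with HX630. It fell by 0.82 ± 0.04, to 56.7% of control. *Psap* encodes prosaposin, the precursor of the saposins that present lipids to hydrolases. It gave 4.33, 4.56, 4.62 and 4.58 with control and 3.56, 3.78, 4.01 and 3.99 with HX630. The groups did not overlap but were more spread than those of the other called genes, with SDs of 0.133 and 0.21, and the fall was 0.69 ± 0.11 (adjusted p = 0.00123). It was not called with the spike-in probes (−0.47, adjusted p = 0.0262) or normexp (−0.50). *Ppt1*, palmitoyl-protein thioesterase, and *Asah1*, acid ceramidase, changed by −0.48 and −0.46, both with an adjusted p under the threshold and a fold under it. *Lipa*, lysosomal acid lipase, was well above background on 2 control arrays and 0 HX630 arrays and was not tested.

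Among the membrane proteins 2 of 5 were called lower, with a median log2 change of −0.28. The groups were apart in the lower direction for all 5, as they were for 32.8% of all tested genes. *Scarb2* encodes LIMP-2, an abundant protein of the lysosomal membrane. It gave 3.04, 3.06, 2.96 and 3.04 with control and 1.81, 1.68, 1.68 and 1.75 with HX630. The fall of 1.29 ± 0.04 left 40.8% of control. *Lamp1*, a main glycoprotein of the lysosomal membrane, gave 6.54, 6.54, 6.39 and 6.48 with control and 5.91, 5.86, 5.83 and 5.88 with HX630. It fell by 0.62 ± 0.04, the smallest fall among the called genes. Its call was lost at −0.35 with quantile normalization, −0.53 with the array median, −0.40 with the spike-in probes and −0.47 with normexp.

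The tetraspanin *Cd63* changed by −0.28 and *Mcoln1*, the lysosomal calcium channel TRPML1, by −0.13. Both passed the adjusted p (0.00461 and 0.00756) and not the fold threshold. For *Mcoln1* the sign turned to 0.08 with the spike-in probes and to 0.03 with normexp. *Lamp2*, whose protein serves in the fusion of autophagosomes with lysosomes, changed by −0.26 at its brightest probe.

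In the V-ATPase 1 of 4 genes was called lower. The groups were apart in the lower direction for all 4, against 32.8% of all tested genes. *Atp6ap1*, an accessory subunit of the pump, gave 2.73, 2.86, 2.73 and 2.67 with control and 1.90, 1.76, 1.83 and 1.81 with HX630. It fell by 0.92 ± 0.05, to 52.9% of control, and by 0.94 at a second probe. The 3 core subunits *Atp6v0d1*, *Atp6v1h* and *Atp6v1a* changed by −0.47, −0.28 and −0.21, each with an adjusted p under the threshold. For *Atp6v1a* the change was 0.004 with the spike-in scaling. The difference between roles was not tested.

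**Figure D3:**
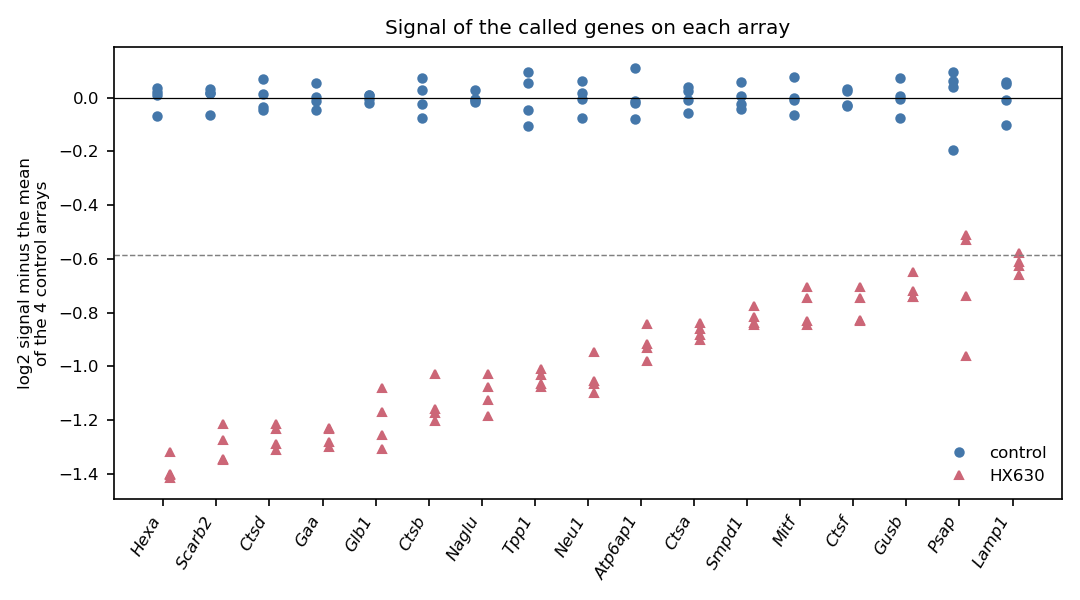
Log2 signal on each of the 8 arrays minus the mean of the 4 control arrays, for the 17 called genes in order of change. Circles are control arrays, triangles HX630 arrays and the dashed line the fold threshold, and in each gene all 4 triangles lie below all 4 circles.

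Of the 35 tested genes 11 had more than 1 tested probe, and in 3 of these the probes differed in call. *Lamp2* was measured by a probe of one transcript that changed by −0.26 ± 0.05 and by a probe of another that fell by 1.42 ± 0.05. The first probe gave 2.32, 2.30, 2.17 and 2.17 with control and 2.02, 2.02, 1.88 and 2.00 with HX630. The second gave 2.11, 2.06, 2.05 and 2.10 with control and 0.78, 0.58, 0.60 and 0.68 with HX630. Neither pair of groups overlapped, and the second probe left 37.4% of control.

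*Idua* had a brighter probe whose groups overlapped, with signals of 2.32, 2.10, 2.51 and 2.55 with control and 2.08, 2.39, 2.43 and 2.61 with HX630. Its change was 0.008 (95% confidence interval −0.31 to 0.32), and from −0.08 to 0.11 with single arrays left out. The dimmer probe, which carries the same transcript accession, gave 0.22, 0.11, 0.23 and 0.26 with control and −0.50, −0.51, −0.54 and −0.45 with HX630. It fell by 0.70 ± 0.04 and was called. *Ctsa* was the third gene, described above, and for *Idua* and *Sgsh* the probes had opposite signs. Which probe reports the gene was not tested. When the mean of all tested probes stood for each gene, 18 were called lower, with *Lamp2* at −0.84 among them, and *Idua* was at −0.35.

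**Figure D4:**
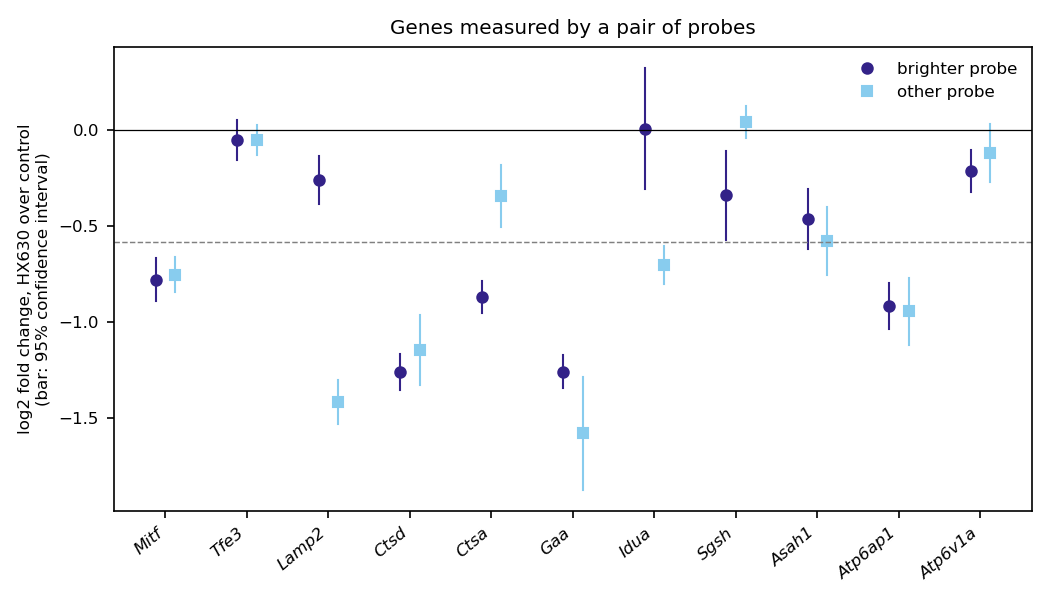
Log2 fold change of HX630 over control for each probe of the 11 genes with a pair of tested probes, with 95% confidence intervals (n = 4 and 4). Circles are the brighter probe, squares the other and the dashed line the fold threshold. The pairs of *Mitf*, *Tfe3*, *Ctsd* and *Atp6ap1* lie close together, and those of *Lamp2*, *Idua* and *Ctsa* lie apart.

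Other genes of the lysosome and of TFEB control, 84 by a list of symbols, were counted in the same fit. Of the 80 tested, 21 were called lower (26.2%) and 0 higher, with a median log2 change of −0.26. With the spike-in scaling 9 were called lower and 2 higher. The calls lay mostly among hydrolases and cofactors, of which 12 of 19 were called lower with a median of −0.71, and 0 of the 19 had a change above 0. The 4 largest falls there were in *Ctsl* (1.65 ± 0.08), *Ctsk* (1.43 ± 0.13), *Aga* (1.17 ± 0.07) and *Galns* (1.14 ± 0.08). *Ctsl* and *Ctsk* are cysteine cathepsins, *Aga* cleaves the link between sugar and asparagine, and *Galns* is a sulfatase for keratan sulfate.

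The other classes held fewer calls. Of 15 tested membrane proteins and transporters 2 were called lower (13.3%), *Npc2*, which binds cholesterol in the lysosome (−0.69), and *Cln3* (−0.60). The other *Cln3* probes changed by −0.89, which was called, and by −0.32, which was not. Of 7 genes for the delivery of enzymes 1 was called lower, *Gnptg* (−0.74), a subunit of the enzyme that begins the mannose 6-phosphate tag. In the same class *Sort1* changed by 0.48 at its brightest probe, not called, and by −0.82 at a dimmer probe, which was called. Of 15 further V-ATPase subunits 3 were called lower, *Atp6ap2* (−1.11), *Tcirg1* (−0.70) and *Atp6v0a2* (−0.60). The share in each of these 3 classes rests on few genes, and the shares for membrane proteins and enzyme delivery were near the 11.2% called lower among all genes.

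Genes that control TFEB gave 3 calls lower of 24 tested (12.5%) and 0 higher, again near the share among all genes. The called genes were *Flcn* (−0.69 ± 0.05) and *Fnip1* (−0.66 ± 0.06), partners in a complex that acts on the Rag GTPases, and *Lamtor3* (−0.60 ± 0.04). *Lamtor3* is a part of the Ragulator scaffold that holds mTORC1 at the lysosome. Its other probes changed by −0.60, which was called, and by −0.49, which was not. *Mtor* changed by 0.34 and was not called. *Tfec*, the remaining factor of the TFEB family, was well above background on 0 arrays and was not tested.

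An exact permutation test over the 70 regroupings of the 8 arrays, two-sided, was also made for single genes. Its smallest possible p is 0.0286, and this value was reached by each of the 30 genes whose groups did not overlap. Groups without overlap reach it by construction, so for these genes the test only restates the lack of overlap. The other 5 gave p = 0.143 for *Gla*, 0.257 for *Tfe3*, 0.429 for *Ctso*, 0.857 for *Ctsh* and 1 for *Idua*, all by the exact permutation test and without adjustment over the genes.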

How the data were processed

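The authors deposited Feature Extraction 10.7.3.1 output for each array, with a processed intensity per spot after background subtraction, and a table of log2 values made in GeneSpring. The deposited log2 values lay within 0.05 of the log2 intensity minus the array's 75th percentile for 99.9952% of values, so their scale, centring and direction were settled. The array column medians of that table ran from −3.91 to −3.68. Values here were computed in R 4.3.3 with limma 3.58.1 from the scanner output. The 1377 control spots of 44397 and 99 to 169 outlier spots per array were left out, spots of a probe were averaged, and 28553 probes were tested with lmFit and eBayes. Adjusted p-values are Benjamini-Hochberg values over all of these probes, and no block was used. Probes were named by RefSeq accession for 66.1% of probes. On simulated data with 200 of 28543 probes changed by 1 on the log2 scale, 77% of these were called with 3 false calls. The simulated arrays had independent normal noise and no slide effect. In the real data 18.6% of tested probes were called, a far larger share, so these rates need not hold there. The number of arrays limits the precision.

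The genes and lists were chosen with earlier results of these data known. Array values are given for each called gene and the TFEB family, and of the other lists at most 5 calls each way are named, some of which are not reported here. *Mtor* and *Tfec* were added after their values were seen. In all 24 alternatives were tried, among them scalings, background correction, filters, the methods' t-test and each array left out.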

Additional observations from a re-analysis of the deposited data

Results flagged for a closer look

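In 3 of the 70 groups of 4 arrays checked, 1 array lay far from the other 3, by the gap to its neighbour divided by the range of the group (Dixon's ratio, above its 95% critical value). Chance gives about 3.5. *Hexa* had a value of 0.836 for HX630 replicate 1, at 2.33 against a mean of 2.24 on the other 3 HX630 arrays. *Scarb2* had 0.831 for control replicate 3, at 2.96 against 3.04. *Tfeb* had 0.903 for HX630 replicate 1, at −3.91 against −3.95.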

How the results depend on the processing

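Of 840 changes of the 35 tested genes under the 24 alternatives, 787 kept their direction and their side of the threshold, 9 were weaker, 18 stronger and 26 reversed. The depth limit here is signal over background, under which 3 of the 38 genes were not tested. The median of the genes was −0.46 with quantile normalization, −0.48 with the array median, −0.35 with the spike-in probes and −0.61 with the mean of all probes. With the spike-in probes 4158 of all probes were called higher and 1950 lower, 1 of the genes was called higher, and 2 other pathway genes were called higher and 9 lower. Normexp, run on the median spot signal, called 1355 of all probes higher. Under normexp 1 of the genes was called higher, and likewise 1 under the array median. At an adjusted p below 0.05 without a fold threshold, 7312 of all probes were higher and 9409 lower, 1 and 28 of the genes, and 11 and 52 of the other pathway genes. The cause of these shifts was not tested, except that a lower threshold calls more by construction.

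Reversals were all among genes that were not called. With quantile normalization *Gla* changed by 0.10, *Ctsh* by 0.068, *Ctso* by 0.003 and *Tfe3* by 0.004. With the array median *Manba* changed by 0.013, *Ctsh* by 0.037 and *Tfe3* by 0.035. With the spike-in probes *Gla* changed by 0.12, *Manba* by 0.14, *Mcoln1* by 0.083, *Ctsh* by 0.17, *Ctso* by 0.11, *Tfe3* by 0.17 and *Atp6v1a* by 0.004. With normexp *Mcoln1* changed by 0.026 and *Tfe3* by 0.02. *Idua* changed by −0.047 with array weights and −0.35 with the mean of all probes, and *Ctsh* by 0.11 with array weights.

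When each array was left out in turn, the change ran from −0.081 to 0.108 for *Idua* and from −0.206 to 0.12 for *Ctsh*. The sign turned for *Idua* without control replicate 1 or 2 or HX630 replicate 3 or 4, and for *Ctsh* without control replicate 1 or HX630 replicate 3 or 4. In these fits 17 or 18 genes were called lower. Same-numbered arrays share a position on their slides, and their deviations from the group means correlated at 0.523, −0.009, 0.243 and 0.381. Replicates 1 and 4 correlated best with their own number and replicates 2 and 3 did not, so the numbers were not taken as pairs. With the replicate number as a block 17 genes were called lower.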
